A study of Homo sapiens with 12 samples.

Results

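MYC and the genes that build ribosomes were followed in the pancreatic carcinoma line MIA PaCa-2, an established human cell line, under 2 doses of glutamine with and without gemcitabine. The set held 43 genes, chosen by symbol: MYC itself, 5 genes of RNA polymerase I transcription, 6 nucleolar organisers and hub proteins, 3 box C/D and 4 box H/ACA core proteins, 12 processing factors of the small ribosomal subunit and 12 of the large one. All 43 were among the 15090 genes of the deposited table, and all 43 were among the 12789 genes that passed the filter on low values (at least 1 RPM, that is 1 read in 1000000 after scaling, in at least 3 libraries). Every group was labelled as wild type and came from the same line, grown in glutamine-free RPMI medium to which L-glutamine was added back. The cells received 40 mM glutamine with 0.5 µM gemcitabine, 2 mM glutamine with 0.5 µM gemcitabine, 40 mM glutamine alone, or 2 mM glutamine alone. RNA was taken after 48 h from biological triplicates, which gave 12 libraries, 3 per group. Gemcitabine is a cytidine analogue that is incorporated into DNA and stalls replication. With 1 line only, the values describe these cultures, and p-values measure the spread between them.

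Ribosomes are assembled in the nucleolus. RNA polymerase I transcribes the precursor rRNA, small nucleolar RNPs modify it, and a large set of assembly factors folds, cleaves and trims it into the small and large subunits. The transcription factor MYC binds E-boxes together with MAX, and is known for driving this programme in growing and malignant cells, including pancreatic carcinoma.

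The libraries held between 21723094 and 32811746 reads in listed genes. Values are RPM as scaled between libraries by the authors, and fold changes are on the log2(RPM + 1) scale. RPM is not corrected for gene length, so levels are compared between groups and not between genes. The members had between 147 reads (the lowest library of PPAN) and 65090 reads (the highest library of NPM1). The epithelial keratins KRT8 (1355 to 2357 RPM), KRT18 (795 to 1603 RPM) and KRT19 (196 to 291 RPM) were present in every library, as were the mesenchymal genes VIM (2944 to 3488 RPM) and ZEB1 (36.9 to 47.2 RPM). The leukocyte marker CD68 lay between 19.2 and 43.9 RPM and the fibroblast marker COL1A2 between 582 and 897 RPM. KRT7, EPCAM, CDH1 and CDH2, the leukocyte marker PTPRC and the acinar and endocrine markers were not analysed here because the table has no row under those symbols. In bulk RNA, fewer cells with a transcript and less of it per cell cannot be told apart.

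The sequence that MYC and MAX are known to bind was looked up in RefSeq promoter windows (build GRCh38.p14, 250 bases before to 50 after the gene start). The motif searched was CACGTG, which is its own reverse complement, so that a match lies on both strands. A window was found for 35 of the 43 members, and 16 of these 35 (45.7%) held the motif, against 12.7% of the 9858 tested genes with a window and 8.78% of all 27305 genes with one. Of the 18 motifs in member windows, 16 lay within 100 bases of the start. These 35 members had 44 windows, since some have more than 1 annotated start. By role, and counting members with a window, the motif was found for 0 of 4 RNA polymerase I genes, 3 of 5 nucleolar organisers, 1 of 2 box C/D proteins, 2 of 4 box H/ACA proteins, 6 of 11 small subunit factors and 4 of 9 large subunit factors. A match is a description of these letters and not of binding. The stretches around 5 of them are printed because the values of these genes are described below. NOP10 has another motif 170 bases before its start and EBNA1BP2 another 42 bases after the start of its other window, and neither is printed. Each reads 5′ to 3′ on the gene's strand, with the E-box in capitals and at most 30 bases on either side.
FBL, GRCh38.p14 chr19:39846350-39846403, minus strand, E-box 6 bases after the start: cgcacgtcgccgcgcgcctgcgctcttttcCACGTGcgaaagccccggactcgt
GNL3, GRCh38.p14 chr3:52686008-52686061, plus strand, E-box 6 bases after the start: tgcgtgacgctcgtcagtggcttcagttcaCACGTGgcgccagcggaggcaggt
NOP10, GRCh38.p14 chr15:34343112-34343177, minus strand, E-box 11 bases before the start: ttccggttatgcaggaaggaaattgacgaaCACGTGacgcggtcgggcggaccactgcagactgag
RRP9, GRCh38.p14 chr3:51941875-51941939, minus strand, E-box 5 bases before the start: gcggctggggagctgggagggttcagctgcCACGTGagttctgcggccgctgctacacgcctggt
EBNA1BP2, GRCh38.p14 chr1:43172772-43172820, minus strand, E-box 237 bases before the start: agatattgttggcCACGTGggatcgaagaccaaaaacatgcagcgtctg

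In gemcitabine-treated cells at 2 mM glutamine, 27 of the 43 members were higher than in untreated cells at 2 mM and 4 were lower. Over all genes tested, 17.5% were higher and 17.1% lower. The median member changed by 0.17 on the log2 scale, against −0.0011 over all genes tested. Of the 1994 tested genes at or above the members' median level, 27.6% were higher and 26.9% lower. Of the 9684 at or above the lowest member level, 20.24% were higher and 20.05% lower. The 27 included TCOF1, NOP56, NOP58, NIP7 and NOP2, and the 4 lower ones were POLR1A, NPM1, HEATR1 and NOB1. By role, 1 RNA polymerase I gene was higher and 1 lower of 5, 5 nucleolar organisers were higher and 1 lower of 6, 2 of 3 box C/D and 2 of 4 box H/ACA proteins were higher, 7 small subunit factors were higher and 2 lower of 12, and 10 of 12 large subunit factors were higher. Of the 27 higher calls, 24 held under every alternative processing and every left-out library. The exceptions were NOP10, BOP1 and RRS1.

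At 40 mM glutamine the same drug comparison gave 12 members higher and 7 lower, against 14.1% higher and 16.2% lower over all genes tested. The members' median was 0.049, against −0.0054 over all genes. The 1994 genes at or above the members' median level had 17.3% higher and 33.1% lower. The 9684 at or above the lowest member level had 14.9% and 20.1%. All 12 higher members (TCOF1, NOLC1, DDX21, LYAR, NOP56, NOP58, DKC1, TSR1, NOP2, MRTO4, EBNA1BP2 and URB2) were also higher at 2 mM. The 7 lower members were MYC, POLR1A, UBTF, NPM1, NHP2, HEATR1 and NOB1, and 4 of them (POLR1A, NPM1, HEATR1 and NOB1) were also lower at 2 mM. The remaining 15 of the 27 members that rose with the drug at 2 mM, among them NCL, GNL3, RRP9 and NIP7, did not pass the threshold at 40 mM. Whether a response differed between the 2 doses is given by the interaction below. Without the deposited scaling factors, 62.9% of all genes called by the drug at 40 mM were higher, against 46.6% with them, and 16 members were then higher and 5 lower. Of the 12 higher calls, 7 held under every alternative, the exceptions being NOLC1, TSR1, NOP2, MRTO4 and URB2. Of the 7 lower calls 4 held, the exceptions being UBTF, NPM1 and NHP2.

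Between the drug-treated groups, 31 of the 43 members were lower at 40 mM than at 2 mM glutamine and 0 were higher. Over all genes tested, 8.62% were higher and 13.0% lower. No member was higher in limma at an unadjusted p under 0.05, nor with voom weights on the recovered reads. The median member fell by 0.17 on the log2 scale, against −0.0015 over all genes, and 41 of 43 members had negative values. Over all genes tested 50.4% were negative, and 69.7% of those at or above the members' median level. Of 77 cytosolic ribosomal proteins, 73 were negative. The lower members were 2 of 5 RNA polymerase I genes, all 6 nucleolar organisers, all 3 box C/D proteins, 2 of 4 box H/ACA proteins, 8 of 12 small subunit factors, 9 of 12 large subunit factors, and MYC. Well-expressed genes were more often lower as a whole: of the 1994 tested genes at or above the members' median level, 8.38% were higher and 35.8% lower. Of the 9684 at or above the lowest member level, 9.88% were higher and 16.5% lower. The split over all genes depended on the scaling, with 39.9% of the called genes higher as deposited, 50.1% after quantile normalization and 68.2% without the scaling factors. Under those 2 settings 25 and 26 members were called lower. Of the 31 lower calls, 24 held under every alternative, and those of UBTF, NOLC1, DDX21, LYAR, NOP56, DDX10 and NAT10 did not.

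Without the drug, 15 members were lower and 2 higher at 40 mM than at 2 mM glutamine, against 8.41% higher and 9.12% lower over all genes tested. The members' median was −0.065, against 0.0016 over all genes. The 1994 genes at or above the members' median level had 12.4% higher and 21.1% lower. The 9684 at or above the lowest member level had 10.4% and 10.6%. The 2 higher members were NOP14 and URB2, small and large subunit factors that were not called between the drug-treated groups. Both calls were lost without 2 mM replicate 2 and without 40 mM replicate 3, and that of NOP14 also without 2 mM replicate 3 (adjusted p 0.00804 to 0.0973 for NOP14 and 0.00673 to 0.0916 for URB2 over the alternatives). All 15 lower members were also lower between the drug-treated groups, and 16 further members were called lower there only. NPM1, FBL, NOB1, DDX10, WDR12 and EBNA1BP2 held their call under every alternative, and the other 9 lower calls did not. The count of lower members was 6 without 2 mM replicate 2, 7 without 2 mM replicate 3, 8 without 40 mM replicate 3 and 7 without the scaling factors. Without those factors, 61.2% of all called genes were higher, against 48.0% with them.

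**Figure D1:**
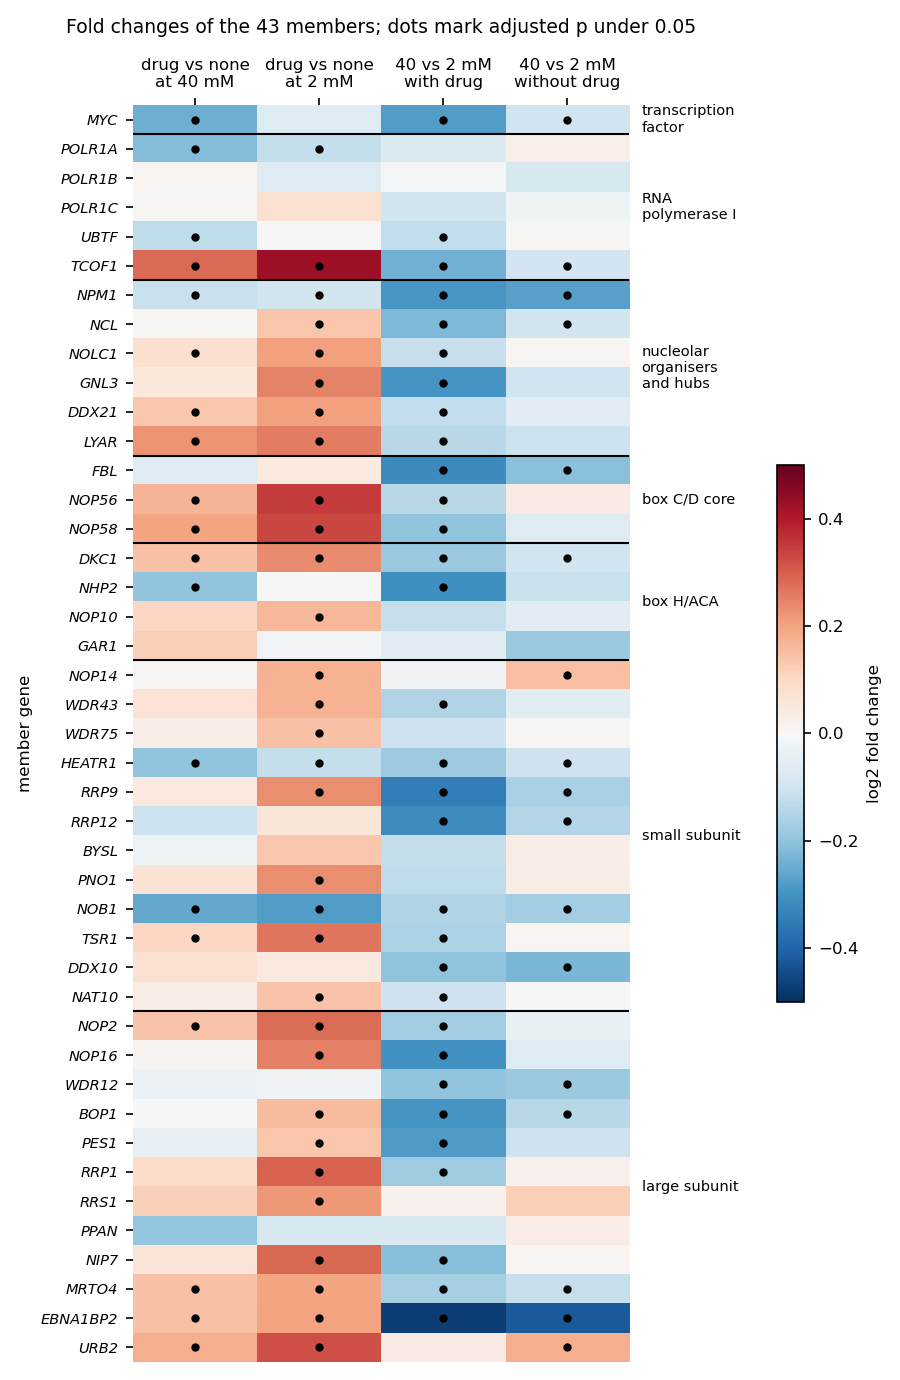
Heat map of log2 fold changes of the 43 members (rows, by role) in 4 comparisons (columns): gemcitabine against none at 40 mM and at 2 mM glutamine, and 40 against 2 mM glutamine with and without gemcitabine. Dots mark adjusted p under 0.05; the column of 40 against 2 mM with gemcitabine holds 31 lower and 0 higher dots.

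Ranked by group mean, 31 of 43 members were highest in cells at 2 mM with drug, where 25.7% of all tested genes were highest. 0 of 43 members were lowest there, against 25.7% of all tested genes. The lowest mean lay at 40 mM with drug for 12 members, at 40 mM without drug for 20 and at 2 mM without drug for 11. Over all tested genes these shares were 25.9%, 22.4% and 26.1%, and the 12 and 11 members are close to them. The members' reads summed to 0.823, 0.824 and 0.813% of each library at 40 mM with drug, to 0.909, 0.924 and 0.918% at 2 mM with drug, to 0.783, 0.803 and 0.799% at 40 mM without drug, and to 0.846, 0.861 and 0.853% at 2 mM without drug. The 4 groups did not overlap in this summed share. The 6 nucleolar organisers, with NPM1 and NCL, weigh most in it, at a mean of 0.443% at 2 mM without drug. Not every role separated the groups. The small subunit factors held 0.116 to 0.1187% at 40 mM with drug and 0.1137 to 0.1186% at 40 mM without drug. The comparisons share libraries: each group enters 2 of the 4 pairwise comparisons.

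**Figure D2:**
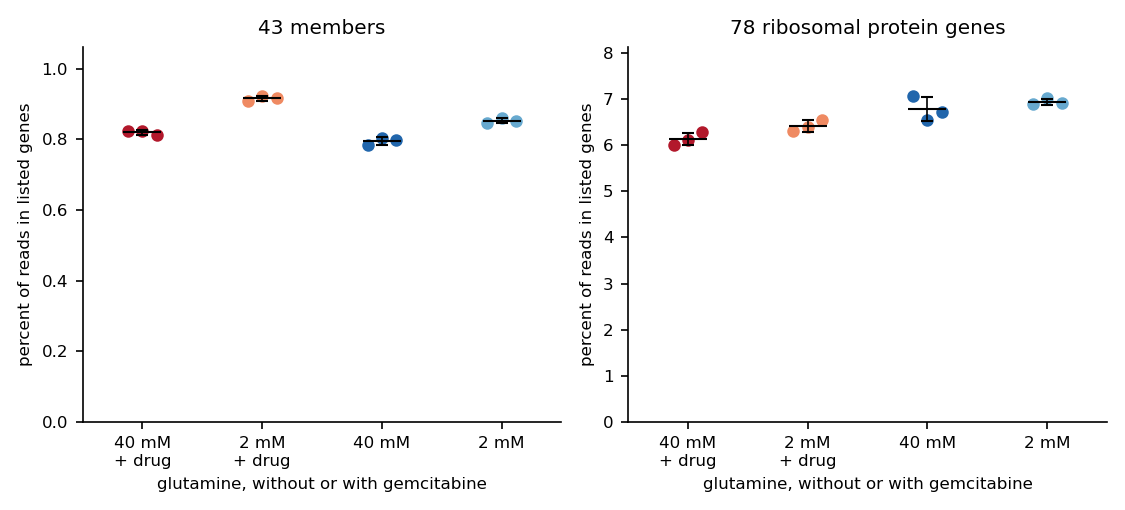
Percent of reads in listed genes taken by the 43 members and by 78 cytosolic ribosomal protein genes, 1 point per library in the 4 groups. The member share was highest at 2 mM with drug (0.909 to 0.924%), while the ribosomal protein share was lowest at 40 mM with drug (6.01 to 6.28%).

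MYC had its lowest values in cells given both 40 mM glutamine and the drug. MYC had 185, 189 and 189 RPM at 40 mM with drug, 222, 232 and 229.9 at 2 mM with drug, 225, 219 and 223 at 40 mM without drug, and 237, 243 and 235 at 2 mM without drug. The 3 libraries at 40 mM with drug lay below all other libraries, the 3 at 2 mM without drug lay above all others, and the 2 remaining groups overlapped. With the drug, MYC was lower at 40 mM than at 2 mM, at −0.28 ± 0.031 (SE, adjusted p = 4.73e-08). At 40 mM it was lower with the drug than without, at −0.25 ± 0.031 (SE, adjusted p = 1.19e-07). At 2 mM the drug comparison gave −0.066 ± 0.031 (SE, adjusted p = 0.0997), which did not pass, although the unadjusted p was 0.0417 and the call was made after quantile normalization (adjusted p = 0.0349 there, 0.0349 to 0.339 over the 22 alternatives). Without the drug, MYC was −0.10 ± 0.031 (SE, adjusted p = 0.0223) at 40 mM against 2 mM. That call was lost without 2 mM replicate 2, 40 mM replicate 2 or 40 mM replicate 3, after quantile normalization and without the scaling factors (adjusted p 0.0169 to 0.099).

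Of 20 other genes of the MYC network, meaning its partners, antagonists and regulators of its stability, 3 were higher (15.0%) and 4 lower (20%) at 40 mM than at 2 mM with the drug, against 8.62% and 13.0% over all genes tested. Higher were the antagonists MXD1 at 0.53 (adjusted p = 0.0008) and MXD4 at 0.15 (adjusted p = 0.035) and the ubiquitin ligase subunit FBXW7 at 0.35 (adjusted p = 0.00643), which targets MYC for degradation. Lower were MNT, also an antagonist, MLXIP and the MYC cofactors RUVBL1 at −0.18 (adjusted p = 0.000136) and RUVBL2 at −0.31 (adjusted p = 2.47e-08). The partner MAX was −0.00021 (adjusted p = 0.998). MXD4 was lower with the drug at 40 mM, at −0.65 ± 0.051 (SE, adjusted p = 2.92e-12), and at 2 mM, at −0.55 ± 0.051 (SE, adjusted p = 1.31e-10). MXD3 went the other way, at 0.38 ± 0.10 (SE, adjusted p = 0.0054) at 40 mM and 0.30 ± 0.10 (SE, adjusted p = 0.0264) at 2 mM. In those drug comparisons the network had 3 genes higher (15.0%) and 2 lower (10.0%) at 40 mM, against 14.1% and 16.2% over all genes, and 5 higher (25.0%) and 3 lower (15.0%) at 2 mM, against 17.5% and 17.1%. Without the drug, 2 were higher (10.0%) and 4 lower (20%) at 40 mM against 2 mM, against 8.41% and 9.12%. Each of these counts is a few genes from the share over all genes. In the interaction 1 network gene was higher (5%, against 0.727% over all genes) and 0 lower, with 2 lower at an unadjusted p under 0.05 in limma. The higher one was AURKA at 0.24 ± 0.055 (SE, adjusted p = 0.014), where MYC itself was negative. MXD4 and MXD3 in the drug comparisons, AURKA, MXD1, FBXW7, MNT, MLXIP and MAX are named after their values were seen.

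**Figure D3:**
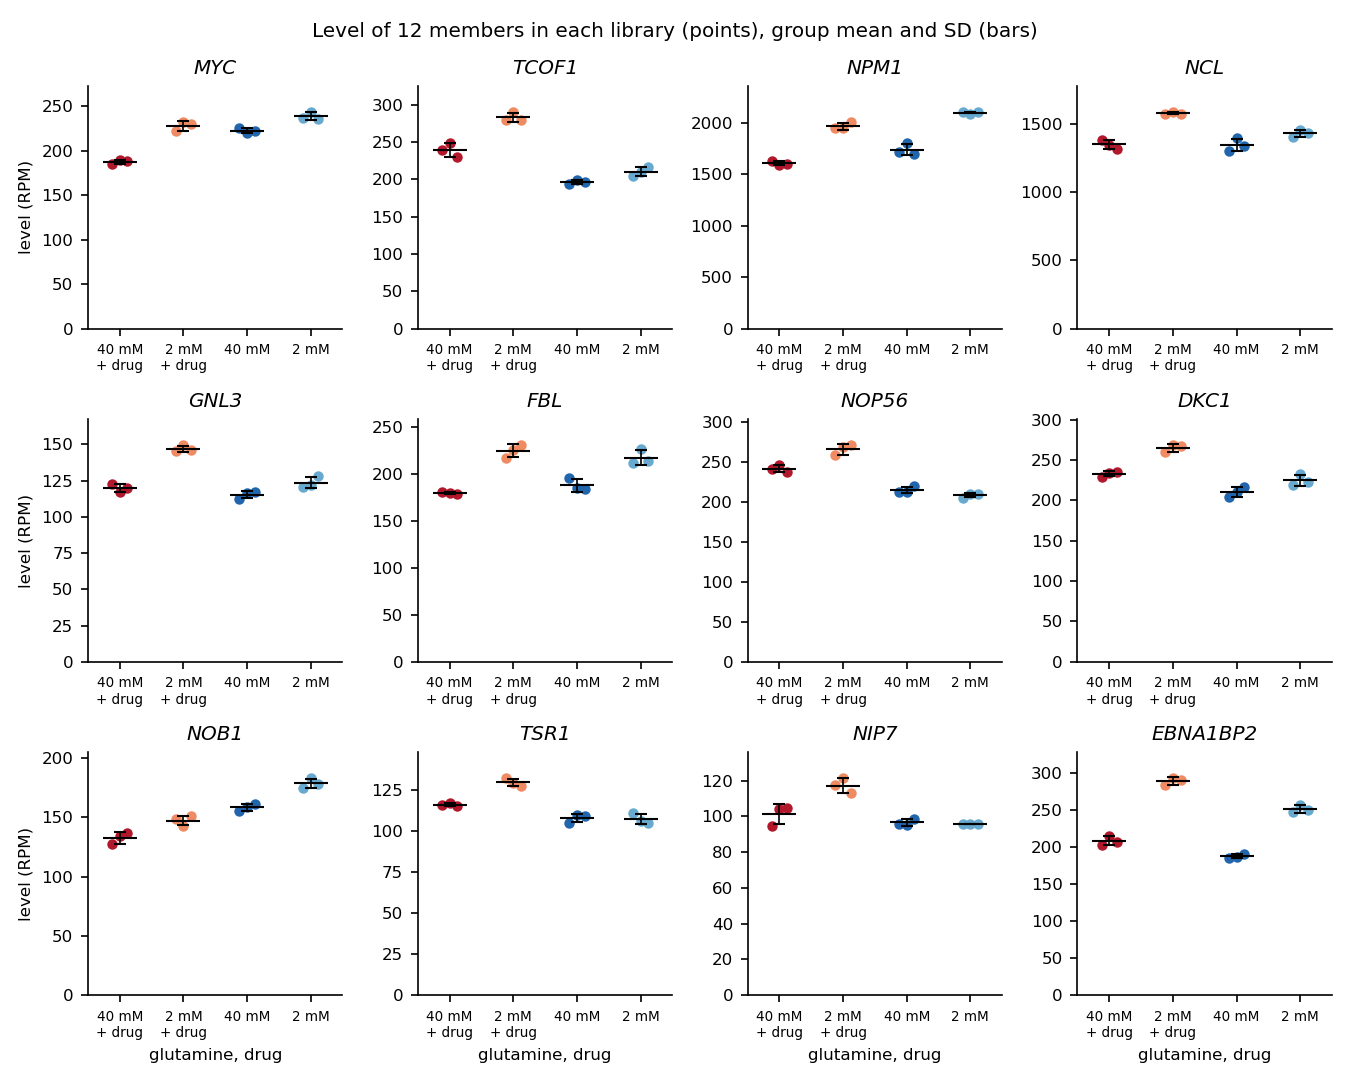
Scaled RPM of 12 members in the 12 libraries, 1 point per library, with bars for the mean and SD of each group (n = 3). Groups run from 40 mM with gemcitabine to 2 mM without; MYC is lowest at 40 mM with gemcitabine, EBNA1BP2 and NPM1 are lower at 40 mM than at 2 mM with and without gemcitabine, and TCOF1 and NOP56 are higher with gemcitabine at both doses.

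Among the RNA polymerase I genes, TCOF1 moved in the opposite direction to the catalytic subunit under the drug. TCOF1 encodes treacle, a nucleolar scaffold for rDNA transcription that is mutated in Treacher Collins syndrome. It had 239, 249 and 230.2 RPM at 40 mM with drug, 279, 290.2 and 279 at 2 mM with drug, 194, 199 and 196 at 40 mM without drug, and 204, 209.7 and 217 at 2 mM without drug. No 2 groups overlapped, and both drug-treated groups lay above both untreated ones. The drug comparison gave 0.28 ± 0.033 (SE, adjusted p = 2.81e-08) at 40 mM and 0.43 ± 0.033 (SE, adjusted p = 2.85e-12) at 2 mM. Glutamine at 40 against 2 mM gave −0.24 ± 0.033 (SE, adjusted p = 2.05e-06) with the drug and −0.097 ± 0.033 (SE, adjusted p = 0.039) without it. The call without the drug was lost without 2 mM replicate 2 or 3 or 40 mM replicate 1 or 3, after quantile normalization, without the scaling factors and with only the groups compared (adjusted p 0.0279 to 0.178 over its alternatives).

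POLR1A, the largest subunit of RNA polymerase I, had 139, 142 and 139 RPM at 40 mM with drug, 144, 155 and 143 at 2 mM with drug, 160.2, 163 and 165 at 40 mM without drug, and 164, 168 and 148 at 2 mM without drug. The libraries at 40 mM with drug lay below all others, and the 2 mM groups overlapped. The drug comparison gave −0.22 ± 0.040 (SE, adjusted p = 6.48e-05) at 40 mM and −0.12 ± 0.040 (SE, adjusted p = 0.0194) at 2 mM. The call at 2 mM was lost without 2 mM replicate 1 or 2 and without replicate 1 or 3 of 2 mM with drug (adjusted p 0.00103 to 0.145). UBTF, which opens rDNA chromatin for the polymerase, had 155, 158 and 160.4 RPM at 40 mM with drug, 163, 181 and 173 at 2 mM with drug, 169, 173 and 175 at 40 mM without drug, and 169, 181 and 166 at 2 mM without drug. Its libraries at 40 mM with drug lay below all others, and the other 3 groups overlapped. UBTF gave −0.13 ± 0.037 (SE, adjusted p = 0.00884) for the drug at 40 mM and −0.12 ± 0.037 (SE, adjusted p = 0.0149) for 40 against 2 mM with the drug. The drug call was lost without the scaling factors (adjusted p 0.00539 to 0.0779). The glutamine call was lost without the scaling factors, after quantile normalization, without replicate 2 or 3 of 2 mM with drug and without replicate 1 of 40 mM with drug (adjusted p 0.00472 to 0.175). POLR1B and POLR1C, the second-largest subunit and a subunit shared with RNA polymerase III, passed in no comparison. Of 12 other RNA polymerase I genes, 1 was higher (SMARCA5, 0.11) and 1 lower (MYBBP1A, −0.32) at 40 against 2 mM with the drug, which is 8.33% each way against 8.62% and 13.0% over all genes. For the drug at 2 mM, 4 were higher (33.3%) and 1 lower (8.33%), against 17.5% and 17.1%.

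All 6 nucleolar organisers were lower at 40 mM than at 2 mM with the drug as deposited. The calls of NPM1, NCL and GNL3 held under every alternative, and those of NOLC1, DDX21 and LYAR did not. NPM1 was also lower in the other 3 comparisons. NPM1, or nucleophosmin, is the histone-binding chaperone that shapes the outer layer of the nucleolus. NPM1 had 1633, 1596 and 1598 RPM at 40 mM with drug, 1950.4, 1949 and 2007 at 2 mM with drug, 1719, 1804 and 1697 at 40 mM without drug, and 2107, 2091 and 2104 at 2 mM without drug. No 2 groups overlapped, and both 40 mM groups lay below both 2 mM groups. Glutamine at 40 against 2 mM gave −0.29 ± 0.026 (SE, adjusted p = 8.82e-10) with the drug and −0.27 ± 0.026 (SE, adjusted p = 1.99e-09) without it. The drug gave −0.11 ± 0.026 (SE, adjusted p = 0.00118) at 40 mM and −0.093 ± 0.026 (SE, adjusted p = 0.00565) at 2 mM, and both drug calls were lost after quantile normalization (adjusted p 2.28e-05 to 0.515 and 0.000333 to 0.0992 over the alternatives). NPM1 has 45 named pseudogenes in GENCODE 29, and the sources used here do not say how reads shared with them were counted.

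NCL, or nucleolin, an RNA-binding protein of rRNA transcription and folding, had 1382, 1347 and 1319 RPM at 40 mM with drug, 1573, 1588 and 1575 at 2 mM with drug, 1303, 1394 and 1337 at 40 mM without drug, and 1404, 1457 and 1436 at 2 mM without drug. The libraries at 2 mM with drug lay above all others, and the 40 mM groups overlapped with each other. NCL gave 0.0052 (adjusted p = 0.911) for the drug at 40 mM, 0.14 ± 0.027 (SE, adjusted p = 0.000119) at 2 mM and −0.23 ± 0.027 (SE, adjusted p = 2.11e-07) for 40 against 2 mM with the drug. Without the drug glutamine gave −0.091 ± 0.027 (SE, adjusted p = 0.0173), a call that was lost without 2 mM replicate 2 or 3, 40 mM replicate 1 or 3 or the scaling factors (adjusted p 0.00237 to 0.0967). GNL3, or nucleostemin, a nucleolar GTPase of proliferating cells whose promoter stretch is printed above, had 122, 117 and 120.0 RPM at 40 mM with drug, 145, 149 and 146 at 2 mM with drug, 113, 116 and 117 at 40 mM without drug, and 121, 122 and 128 at 2 mM without drug. Its libraries at 2 mM with drug lay above all others, and the other groups overlapped in part. GNL3 gave 0.25 ± 0.036 (SE, adjusted p = 1.55e-06) for the drug at 2 mM and −0.29 ± 0.036 (SE, adjusted p = 3.30e-07) for 40 against 2 mM with the drug. NOLC1, DDX21 and LYAR were higher with the drug, at 0.081 to 0.22 for 40 mM and 0.20 to 0.25 for 2 mM, and lower at 40 against 2 mM with the drug, at −0.14 to −0.11. All 3 of these glutamine calls were lost after quantile normalization, where NOLC1 was −0.015 (adjusted p = 0.775), DDX21 −0.020 (adjusted p = 0.726) and LYAR −0.12 (adjusted p = 0.0679), and all 3 were lost without the scaling factors. That of LYAR was also lost without any 1 replicate of 2 mM with drug and without replicate 1 or 3 of 40 mM with drug. The adjusted p ranged over 0.00127 to 0.775 for NOLC1, 0.000679 to 0.726 for DDX21 and 0.0175 to 0.204 for LYAR. The drug call of NOLC1 at 40 mM was lost without 40 mM replicate 1 or 3, without replicate 1 or 2 of 40 mM with drug and with only the groups compared (adjusted p 0.000418 to 0.205).

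The 3 box C/D proteins form the core of the particles that methylate rRNA. NOP56 and NOP58 were higher with the drug at both doses, and FBL passed for the drug at neither. FBL, or fibrillarin, the methyltransferase, whose promoter stretch is printed above, had 181, 179 and 178 RPM at 40 mM with drug, 217, 226 and 230.3 at 2 mM with drug, 195, 184 and 183 at 40 mM without drug, and 211, 226 and 214 at 2 mM without drug. Both 40 mM groups lay below both 2 mM groups. FBL gave −0.32 ± 0.034 (SE, adjusted p = 2.47e-08) for 40 against 2 mM with the drug and −0.21 ± 0.034 (SE, adjusted p = 3.42e-05) without it, and did not pass for the drug, which gave −0.063 (adjusted p = 0.17) at 40 mM and 0.047 (adjusted p = 0.308) at 2 mM. NOP56, a scaffold of the same particle, had 242, 246 and 238 RPM at 40 mM with drug, 259, 269 and 271 at 2 mM with drug, 212, 213 and 219.7 at 40 mM without drug, and 206, 210.5 and 211 at 2 mM without drug. No 2 groups overlapped, and both drug-treated groups lay above both untreated ones. NOP56 gave 0.17 ± 0.031 (SE, adjusted p = 6.00e-05) for the drug at 40 mM and 0.35 ± 0.031 (SE, adjusted p = 6.91e-11) at 2 mM. At 40 against 2 mM it gave −0.14 ± 0.031 (SE, adjusted p = 0.00143) with the drug, a call lost after quantile normalization (adjusted p 0.000564 to 0.0752), and 0.042 (adjusted p = 0.386) without it. NOP58, which pairs with NOP56, had 176, 167 and 166 RPM at 40 mM with drug, 198, 191 and 197 at 2 mM with drug, 142, 150.5 and 152 at 40 mM without drug, and 152, 155 and 157 at 2 mM without drug. Its groups stood in the order 2 mM with drug, 40 mM with drug, 2 mM, 40 mM from high to low, with no overlap. NOP58 gave 0.20 ± 0.035 (SE, adjusted p = 4.23e-05) for the drug at 40 mM and 0.33 ± 0.035 (SE, adjusted p = 2.47e-09) at 2 mM.

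The box H/ACA proteins, which direct pseudouridylation of rRNA and are also found in telomerase, were mixed. DKC1, or dyskerin, the pseudouridine synthase, had 229, 233 and 235 RPM at 40 mM with drug, 259.5, 268 and 267 at 2 mM with drug, 204, 210.2 and 217 at 40 mM without drug, and 219, 232 and 222 at 2 mM without drug. Libraries at 2 mM with drug lay above all others, and those at 40 mM with drug overlapped with 2 mM without drug. DKC1 gave 0.15 ± 0.032 (SE, adjusted p = 0.00061) for the drug at 40 mM, 0.24 ± 0.032 (SE, adjusted p = 4.48e-07) at 2 mM and −0.19 ± 0.032 (SE, adjusted p = 6.27e-05) for 40 against 2 mM with the drug. Its call without the drug, −0.095 (adjusted p = 0.0377), was lost without 2 mM replicate 2 or 3 or 40 mM replicate 1 or 2, after quantile normalization, without the scaling factors and with only the groups compared (adjusted p 0.0278 to 0.193). NHP2, which binds the guide RNA, had 43.4, 48.2 and 47.1 RPM at 40 mM with drug, 51.7, 62.2 and 58.8 at 2 mM with drug, 60.6, 52.6 and 47.2 at 40 mM without drug, and 54.8, 60.1 and 57.5 at 2 mM without drug. The 40 mM libraries with drug lay below both 2 mM groups and overlapped with 40 mM without drug. NHP2 gave −0.31 ± 0.066 (SE, adjusted p = 0.000951) for 40 against 2 mM with the drug. For the drug at 40 mM it gave −0.20 ± 0.066 (SE, adjusted p = 0.0216), and this call was lost without 40 mM replicate 1, without replicate 1 of 40 mM with drug, without the scaling factors and under robust moderation (adjusted p 0.00228 to 0.246).

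NOP10, the smallest core protein, had 49.1, 53.001 and 53.9 RPM at 40 mM with drug, 56.3, 58.0 and 54.7 at 2 mM with drug, 54.1, 42.5 and 48.8 at 40 mM without drug, and 52.2, 50.1 and 48.1 at 2 mM without drug. Its libraries at 2 mM with drug lay above all others. The drug comparison at 2 mM gave 0.17 ± 0.060 (SE, adjusted p = 0.0322). That call was lost without 2 mM replicate 2 or 3 and without replicate 1 or 2 of 2 mM with drug (adjusted p 0.00841 to 0.122). GAR1, the protein that helps release the product, had 26.4, 25.1 and 23.4 RPM at 40 mM with drug, 24.5, 26.9 and 26.6 at 2 mM with drug, 25.3, 22.2 and 21.4 at 40 mM without drug, and 24.4, 28.9 and 25.4 at 2 mM without drug. All groups overlapped, and GAR1 passed in none of the comparisons.

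In the small subunit group, NOB1 was lower in all 4 comparisons, while 7 of its 12 members were higher with the drug at 2 mM. NOB1, the endonuclease that makes the final cut of the small subunit rRNA, had 127, 134 and 137 RPM at 40 mM with drug, 148, 143 and 151 at 2 mM with drug, 156, 158 and 161 at 40 mM without drug, and 175, 183 and 178 at 2 mM without drug. No 2 groups overlapped, and both drug-treated groups lay below both untreated ones. The drug gave −0.25 ± 0.036 (SE, adjusted p = 8.28e-07) at 40 mM and −0.28 ± 0.036 (SE, adjusted p = 1.55e-07) at 2 mM, and glutamine gave −0.15 ± 0.036 (SE, adjusted p = 0.00234) with the drug and −0.17 ± 0.036 (SE, adjusted p = 0.000633) without it. HEATR1, a component of the early processome that also supports rDNA transcription, had 146, 137 and 136 RPM at 40 mM with drug, 160.2, 158 and 158 at 2 mM with drug, 154, 169 and 159 at 40 mM without drug, and 171, 175 and 171 at 2 mM without drug. The libraries at 40 mM with drug lay below all others and those at 2 mM without drug above all others. HEATR1 gave −0.20 ± 0.037 (SE, adjusted p = 5.63e-05) for the drug at 40 mM, −0.12 ± 0.037 (SE, adjusted p = 0.0103) at 2 mM and −0.18 ± 0.037 (SE, adjusted p = 0.000374) for 40 against 2 mM with the drug. Without the drug it gave −0.10 (adjusted p = 0.0489), which was lost without any 1 of 9 libraries, namely each 2 mM library with or without drug, 40 mM replicates 1 and 3, and replicate 2 of 40 mM with drug, and under 5 other settings (adjusted p 0.01 to 0.23).

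TSR1, a GTPase-like factor of late small subunit maturation, had 116, 117 and 115 RPM at 40 mM with drug, 132, 129 and 127 at 2 mM with drug, 105, 109.8 and 109 at 40 mM without drug, and 111, 106 and 105 at 2 mM without drug. Both drug-treated groups lay above both untreated ones, and the untreated groups overlapped. TSR1 gave 0.10 ± 0.037 (SE, adjusted p = 0.0321) for the drug at 40 mM, 0.27 ± 0.037 (SE, adjusted p = 4.78e-07) at 2 mM and −0.16 ± 0.037 (SE, adjusted p = 0.00171) for 40 against 2 mM with the drug. The call at 40 mM was lost without 40 mM replicate 1 or 3 and without replicate 1 or 2 of 40 mM with drug (adjusted p 0.00273 to 0.131). RRP9, which binds the snoRNA needed for early cleavage and whose promoter stretch is printed above, was −0.35 at 40 against 2 mM with the drug, the most negative value of the 12. RRP12, an export factor, followed at −0.31, DDX10 at −0.20 (lost without replicate 2 or 3 of 40 mM with drug, adjusted p 0.000453 to 0.0671) and WDR43 at −0.15. NOP14, WDR75, BYSL and PNO1 did not pass there, with values from −0.13 to −0.019.

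Of 49 other small subunit factors, 24 were higher and 1 lower for the drug at 2 mM, 11 were higher and 1 lower for it at 40 mM, and 1 was higher and 15 lower at 40 against 2 mM with the drug. As shares, 49.0% were higher for the drug at 2 mM (17.5% over all genes), 22.4% at 40 mM (14.1%), and 30.6% lower between the drug-treated groups (13.0%). For all tested genes at or above the lowest member level, these shares were 20.2%, 14.9% and 16.5%. At or above the members' median level they were 27.6%, 17.3% and 35.8%. The smallest p-values of the last comparison belonged to DHX37 (−0.31), RRP7A (−0.28) and UTP14A (−0.28). The 1 lower gene in each drug comparison was TBL3, and the 1 higher gene between the drug-treated groups was UTP25. These 2 are named after their values were seen.

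The large subunit group had 10 of 12 members higher with the drug at 2 mM and 0 lower. The number lower was also 0 at an unadjusted p under 0.05 in limma and 0 with voom weights. Between the drug-treated groups 9 of 12 were lower at 40 mM. EBNA1BP2, a factor of early large subunit assembly first found as a partner of a viral protein, had 203, 215 and 206 RPM at 40 mM with drug, 283, 292 and 291 at 2 mM with drug, 186, 187 and 190.4 at 40 mM without drug, and 247, 257 and 249.6 at 2 mM without drug. No 2 groups overlapped, and both 40 mM groups lay below both 2 mM groups. Glutamine gave −0.47 ± 0.032 (SE, adjusted p = 7.71e-13) with the drug and −0.42 ± 0.032 (SE, adjusted p = 1.87e-11) without it, and the drug gave 0.15 ± 0.032 (SE, adjusted p = 0.000412) at 40 mM and 0.20 ± 0.032 (SE, adjusted p = 5.61e-06) at 2 mM.

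BOP1, which joins PES1 and WDR12 in a complex needed to process the large subunit rRNA, had 133, 142 and 144 RPM at 40 mM with drug, 169, 175 and 169.8 at 2 mM with drug, 137, 135 and 146 at 40 mM without drug, and 142, 161 and 158 at 2 mM without drug. Libraries at 2 mM with drug lay above all others, and the other groups overlapped. BOP1 gave −0.29 ± 0.041 (SE, adjusted p = 2.62e-06) for 40 against 2 mM with the drug and 0.16 ± 0.041 (SE, adjusted p = 0.00285) for the drug at 2 mM, a call lost without 2 mM replicate 1 (adjusted p 0.00109 to 0.056). Without the drug, 40 against 2 mM gave −0.14 (adjusted p = 0.0163), lost without 2 mM replicate 2 or 3 or 40 mM replicate 1 or 2 (adjusted p 0.00161 to 0.116). Its partners gave −0.28 (adjusted p = 1.25e-06) for PES1 and −0.20 (adjusted p = 0.00074) for WDR12 between the drug-treated groups. WDR12 was not called by the drug at either dose (−0.028 at 40 mM and −0.019 at 2 mM), and PES1 was higher with it at 2 mM (0.14).

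NOP2, an rRNA methyltransferase, had 133, 137 and 124 RPM at 40 mM with drug, 149, 148 and 147 at 2 mM with drug, 114, 116 and 126 at 40 mM without drug, and 120.2, 127 and 118 at 2 mM without drug. Libraries at 2 mM with drug lay above all others. NOP2 gave 0.28 ± 0.041 (SE, adjusted p = 1.74e-06) for the drug at 2 mM and −0.17 ± 0.041 (SE, adjusted p = 0.00206) for 40 against 2 mM with the drug. The drug call at 40 mM, 0.14 (adjusted p = 0.00707), was lost without 40 mM replicate 1 or replicate 2 of 40 mM with drug (adjusted p 0.000705 to 0.0659). NIP7, a factor of late rRNA processing, had 94.9, 104 and 104 RPM at 40 mM with drug, 118, 121 and 113 at 2 mM with drug, 95.6, 95.5 and 98.8 at 40 mM without drug, and 95.7, 96.0 and 95.7 at 2 mM without drug. Again the libraries at 2 mM with drug lay above all others, and the other 3 groups overlapped. NIP7 gave 0.066 (adjusted p = 0.239) for the drug at 40 mM, 0.29 ± 0.041 (SE, adjusted p = 9.80e-07) at 2 mM and −0.21 ± 0.041 (SE, adjusted p = 0.000252) for 40 against 2 mM with the drug. NOP16 and RRP1 were also lower between the drug-treated groups, at −0.30 and −0.18, and RRS1, PPAN and URB2 were not called there. Of 55 other large subunit factors, 22 were higher and 4 lower for the drug at 2 mM, 9 were higher and 4 lower for it at 40 mM, and 1 was higher (TEX10) and 21 lower at 40 against 2 mM with the drug, including NOC2L (−0.27), CCDC86 (−0.26) and RSL1D1 (−0.19). As shares, 40.0% were higher for the drug at 2 mM (17.5% over all genes), 16.4% at 40 mM (14.1%), and 38.2% lower between the drug-treated groups (13.0%). For all tested genes at or above the lowest member level, these shares were 20.2%, 14.9% and 16.5%. At or above the members' median level they were 27.6%, 17.3% and 35.8%. TEX10 is named after its value was seen.

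For 4 members the drug response itself differed between the glutamine doses, by the interaction term of the fit. The response at 40 mM minus that at 2 mM was −0.18 ± 0.044 (SE, adjusted p = 0.0213) for MYC, −0.18 ± 0.044 (SE, adjusted p = 0.0217) for NOP56, −0.22 ± 0.058 (SE, adjusted p = 0.0326) for NIP7 and −0.20 ± 0.051 (SE, adjusted p = 0.0343) for GNL3. MYC gave −0.25 for the drug at 40 mM and −0.066 at 2 mM, whereas the other 3 gave smaller positive values at 40 mM (0.17, 0.066 and 0.053) than at 2 mM (0.35, 0.29 and 0.25). Over all genes tested, 1.47% had a lower and 0.727% a higher response at 40 mM, and of the 1994 genes at or above the members' median level 5.17% and 1.20%. The members' median was −0.12, against −0.0069 over all genes, and 39 of 43 members had negative values. Over all genes tested 52.0% were negative, and 68.9% of those at or above the members' median level. Of 77 cytosolic ribosomal proteins, 70 were negative. 0 members had a higher response, also at an unadjusted p under 0.05 in limma and with voom weights.

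NCL, at −0.14 (adjusted p = 0.0556), was called with voom weights (adjusted p = 0.0138) and under robust moderation (adjusted p = 0.00873), with a range of 0.00873 to 0.896 over the alternatives. All 4 interaction calls were lost after quantile normalization and without the deposited scaling factors, where 54.7% and 58.9% of the genes called were higher, against 33.1% as deposited. Each also depended on single libraries. MYC and NOP56 did not pass without 2 mM replicate 1, replicates 2 or 3 of 2 mM with drug, 40 mM replicate 3 or replicate 1 of 40 mM with drug. NIP7 did not pass without 2 mM replicate 1, replicates 1 or 2 of 2 mM with drug, 40 mM replicate 3 or replicate 1 of 40 mM with drug. GNL3 did not pass without 2 mM replicates 1 or 2, any replicate of 2 mM with drug, 40 mM replicate 3 or replicate 2 of 40 mM with drug. The adjusted p over the 21 alternatives lay between 0.0147 and 0.096 for MYC, 0.0143 and 0.107 for NOP56, 0.0234 and 0.125 for NIP7, and 0.0198 and 0.126 for GNL3. NIP7 shares 492 exon bases with COG8 on the opposite strand in GENCODE 29, and COG8 had an interaction of −0.19 (adjusted p = 0.318).

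**Figure D4:**
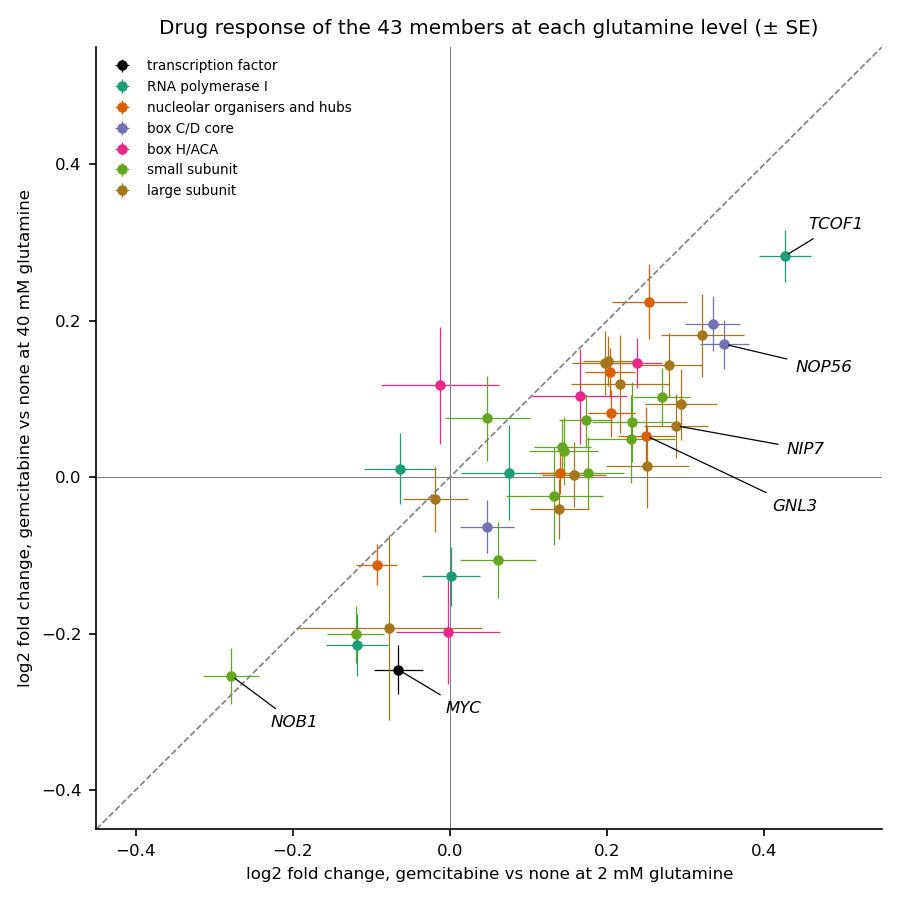
Log2 fold change of each member for gemcitabine against none at 40 mM glutamine (vertical axis) against that at 2 mM (horizontal axis), with SE bars and the line of equal response. Of 43 members, 39 lie below the line. Among all tested genes at or above the members' median level (not drawn), 68.9% had a negative interaction. MYC, GNL3, NOP56 and NIP7 passed the interaction test.

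Members with and without an E-box in the window were set side by side. For the drug at 2 mM, 13 of the 16 members with the motif were higher and 0 lower, with a median of 0.19. Of the 19 members without it, 8 were higher and 4 lower, with a median of 0.048. Over all genes tested, 17.5% were higher and 17.1% lower. For the drug at 40 mM, 5 of 16 with the motif were higher and 0 lower, with a median of 0.071. Without it, 3 of 19 were higher and 6 lower, with a median of 0.0057, against 14.1% and 16.2% over all genes. Between the drug-treated groups, 11 of 16 members with the motif and 14 of 19 without it were lower at 40 mM. Their medians were −0.14 and −0.18, and over all genes 13.0% were lower. The 4 members lower with the drug at 2 mM (POLR1A, NPM1, HEATR1 and NOB1) were all among the 19 without the motif. No test was made of these differences, and the groups differ in role, since no RNA polymerase I window held the motif.

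The cytosolic ribosomal proteins, the protein parts of the ribosome itself, were in large part lower with the drug at both glutamine doses. Of 77 tested, 47 were lower and 0 higher for the drug at 2 mM, with a median of −0.10 (2 were higher at an unadjusted p under 0.05 in limma and 0 with voom weights), where the 43 members had 27 higher and 4 lower. The share lower there was 17.1% over all genes and 26.9% at or above the members' median level. For the drug at 40 mM, 65 of the 77 were lower and 0 higher, with a median of −0.16. The share lower at that dose was 16.2% over all genes and 33.1% at or above the members' median level. Between the drug-treated groups, the members' median was −0.17 and the ribosomal protein median −0.14. There 58 of the 77 were lower (75.3%, against 13.0% over all genes and 35.8% at such levels) and 0 higher. In limma 2 were higher there at an unadjusted p under 0.05, and 0 with voom weights. Without the drug, the ribosomal protein median at 40 against 2 mM was −0.061, with 23 lower and 0 higher (2 higher at an unadjusted p under 0.05 and 2 with voom weights). These 23 are 29.9%, against 9.12% over all genes and 21.1% at such levels. Their reads made up 6.01 to 6.28% of each library at 40 mM with drug, 6.31 to 6.55% at 2 mM with drug, 6.55 to 7.07% at 40 mM without drug and 6.91 to 7.02% at 2 mM without drug.

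These 4 further lists put the members beside related genes. Of 22 RNA polymerase III genes, 3 were lower at 40 against 2 mM with the drug (POLR3G, POLR3K and MAF1), a share of 13.6% that is near the 13.0% over all genes. 0 were higher, with 1 higher at an unadjusted p under 0.05 and 0 with voom weights. Of 15 genes of the RNA exosome, which trims rRNA ends, 6 were higher for the drug at 2 mM (40.0%, against 17.5% over all genes). Between the drug-treated groups 4 (EXOSC2, EXOSC3, EXOSC4 and EXOSC5) were lower (26.7%, against 13.0%). For all tested genes at or above the lowest member level, these shares were 20.2% and 16.5%. At or above the members' median level they were 27.6% and 35.8%. Of 31 metabolic and cell-cycle genes known as MYC targets, 15 were higher and 3 lower for the drug at 2 mM, 8 were higher and 9 lower for it at 40 mM, and 1 was higher (TFRC) and 19 lower at 40 against 2 mM with the drug. As shares, 48.4% were higher for the drug at 2 mM (17.5% over all genes), 25.8% higher and 29.03% lower at 40 mM (14.1% and 16.2%), and 61.3% lower between the drug-treated groups (13.0%, and 35.8% of genes at or above the members' median level). The lower ones included IMPDH2 (−0.33), which supplies guanine nucleotides, HSPD1 (−0.25), a mitochondrial chaperonin, and SLC7A5 (−0.23), an amino acid exchanger. In the small list on the 5S particle and p53 surveillance, the ribosomal proteins RPL5 and RPL11, 2 of 6 genes, were lower between the drug-treated groups, and the p53 target CDKN1A was higher with the drug, at 1.16 at 40 mM and 0.84 at 2 mM. TFRC, CDKN1A, RPL5 and RPL11 are named after their values were seen.

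**Figure D5:**
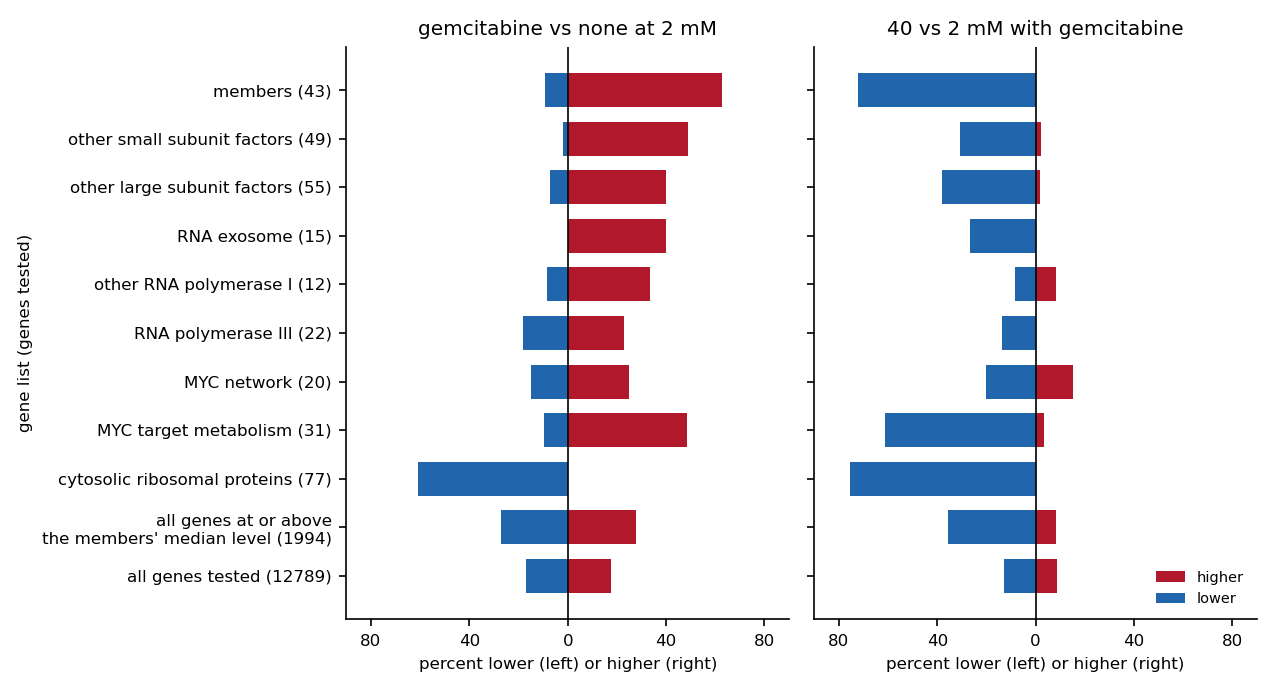
Percent of the tested genes of each list called higher or lower (adjusted p under 0.05) for gemcitabine against none at 2 mM glutamine and for 40 against 2 mM glutamine with gemcitabine, with all tested genes for reference. For the drug at 2 mM the 43 members and the other small and large subunit factors had more genes higher than lower, and the ribosomal proteins had 0 higher and 47 of 77 lower.

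Some counts may be shared with neighbouring genes, because the sources used here give no strand setting for the counting. In GENCODE 29, 12 members share exon bases with a protein-coding gene on the opposite strand, HEATR1 the most with 1986 bases (LGALS8), TSR1 with 720 (SRR) and NHP2 with 379 (RMND5B). SRR was 0.28 at 40 against 2 mM with the drug, where TSR1 was −0.16. Of the 43 members, 10 overlap a gene on the same strand, snoRNAs and miRNAs among them, and 8 have named pseudogenes. POLR1B, POLR1C, GAR1, BYSL and PPAN passed in none of the comparisons.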

How the data were processed

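RNA-seq was done on 12 libraries of MIA PaCa-2 cells, 3 in each of 4 groups taken from the labels. The deposited table holds 1 log2 value per gene and library, log2(RPM + 1), as read from the values. Undoing the log gave whole multiples of 1 read for 100% of values within 0.05 of a whole number, so reads per library could be recovered. The authors' scaling factors between libraries, recovered the same way, ran from 0.979 to 1.029 and differed by group. They were 1.026 to 1.029 at 40 mM with drug and 0.988 to 0.991 at 2 mM with drug. Without drug they were 0.994 to 1.002 at 40 mM and 0.979 to 0.987 at 2 mM. The aligner, counter, strand setting and genome build were not given in the sources used here. No column of another series was found (0).

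Genes at 1 RPM or more in at least 3 libraries were tested (12789 of 15090) with limma 3.58.1 in R 4.3.3 on the deposited log2 values, with 4 group means, a mean-variance trend, no block and all 12 libraries in 1 fit. P-values were two-sided and adjusted by Benjamini-Hochberg over all genes tested, with a threshold of 0.05. The planned design foresaw such values and a count test was not the main test. The fit was tested on simulated data. Other tools were Python 3.11.15, numpy 2.4.6, pandas 2.3.3 and matplotlib 3.10.9. The 43 members and all lists were chosen with earlier results of these data known, so no p-value is given for a list.

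Values in every library are given for MYC, for up to 3 members per role with the smallest F-test p over the 4 groups (all members for roles of 4 or fewer), and for members that passed the interaction. From each other list up to 3 genes with the smallest p at 40 against 2 mM with the drug are named. Replicate pairs differed by more than sampling noise (chi-square per degree of freedom 2.38 to 5.64), and no libraries were merged. Libraries with the same replicate number did not deviate together: none of 18 correlations was over 0.1 (−0.077 to 0.048). Alternatives were other filters, pseudocounts of 0.5 and 5, quantile normalization, plain RPM without the scaling factors, voom weights on the recovered reads, robust moderation, only the groups compared, a replicate block, and each library left out. Sequences come from RefSeq windows on GRCh38.p14, and exon overlaps and pseudogenes from GENCODE 29.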

Additional observations from a re-analysis of the deposited data

Results flagged for a closer look

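For 4 of the 43 members (9.30%) the gemcitabine response differed between the glutamine doses, by the interaction term in limma. Over all genes tested 1.47% had a lower response at 40 mM, and 5.17% of those at or above the members' median level. The response at 40 mM minus that at 2 mM was −0.18 for MYC (adjusted p = 0.0213), with −0.25 at 40 mM and −0.066 at 2 mM. It was −0.20 for GNL3 (adjusted p = 0.0343), with 0.053 at 40 mM and 0.25 at 2 mM. It was −0.18 for NOP56 (adjusted p = 0.0217), with 0.17 at 40 mM and 0.35 at 2 mM. It was −0.22 for NIP7 (adjusted p = 0.0326), with 0.066 at 40 mM and 0.29 at 2 mM. All 4 missed the threshold after quantile normalization and without the deposited scaling factors. Each call was also lost when single libraries were left out, any 1 of 5 for MYC, NOP56 and NIP7 and of 7 for GNL3.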

How the results depend on the processing

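No member's call turned to the opposite direction under the alternatives run, whereas the balance of higher and lower calls over all genes did for some comparisons. Without the scaling factors, the share of called genes that were higher was 68.2% for glutamine with the drug (39.9% as reported), 62.9% for the drug at 40 mM (46.6%), 61.2% for glutamine without the drug (48.0%) and 58.9% for the interaction (33.1%). After quantile normalization it was 54.7% for the interaction and 50.1% for glutamine with the drug. The counts of members called for the drug at 2 mM, the drug at 40 mM and glutamine with the drug stayed within 1.5 times of the reported ones. This held under every alternative. With 1 library left out each time, the drug at 2 mM gave 25 to 28 higher and 3 to 4 lower. The drug at 40 mM gave 8 to 12 higher and 6 to 8 lower, and glutamine with the drug 28 to 32 lower. Outside these ranges lay the counts without the scaling factors, given above for the drug at 40 mM and for glutamine with the drug. The count after quantile normalization for glutamine with the drug also lay outside. Glutamine without the drug gave 15 lower members as reported, 7 without the scaling factors and 6 to 15 with a library left out, and 0 to 2 higher. The interaction gave 4 lower members as reported, 0 after quantile normalization, 0 without the scaling factors and 0 to 6 with a library left out. The cause was not tested.

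Over all genes, removing the scaling factors gave 2017 genes higher and 941 lower for glutamine with the drug, against 1102 and 1663 as reported. For the interaction, 96 genes were lower after quantile normalization and 97 without the factors, against 188 as reported. Leaving out a library gave 155 to 366 interaction genes in all, 47 to 103 higher and 104 to 263 lower. The members' median for glutamine with the drug was −0.17 as reported, −0.13 after quantile normalization and −0.11 without the factors. Over all genes tested the median was −0.0015, 0.0017 and 0.049 under these settings. With the replicate block, 13 members were lower for glutamine without the drug, 31 with it, and 4 in the interaction, and 27 were higher with the drug at 2 mM. The replicate numbers share only a number, and the block moved no count by over 1.5 times. Among the genes with values in every library it changed 1 call, that of HEATR1 for glutamine without the drug (adjusted p = 0.0503 with the block, 0.01 to 0.23 over all alternatives). Changes in total RNA per cell cannot be seen in RPM.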
